A study of Mus musculus with 3 samples.

Results

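The cells described here are conventional and migratory dermal dendritic cells in mouse skin, 66 of the 20728 cells kept from 3 single-cell libraries. A member had at least 10 counts of Cd74 and at least 1 count of any of Flt3, Zbtb46, Xcr1, Clec9a, Ccr7 and Cd209a. It had 0 counts of Mrc1, Ly6c2, Cd207, Cd3e, Cd79a and Col1a2, which mark macrophages, monocytes, Langerhans cells, T cells, B cells and fibroblasts. There were 57 members in irradiated skin given saline (UV), 8 in unirradiated skin given saline (control), and 1 in irradiated skin given the treatment labelled VD (UV+VD), which the study's title leads one to take as vitamin D. All 3 groups were whole skin of C57BL/6 mice aged 9 weeks, with 1 library for each group, dissociated and barcoded with the Singleron GEXSCOPE kit. The labels give no sex, site, dose or time of sampling, nor how many animals each library held. With 1 library a group no difference was tested. Values below describe these libraries, and their 95% intervals, in square brackets, cover counting error only.

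Dendritic cells take up antigen in the skin, display its peptides on MHC class II molecules and carry it to the draining lymph node. The type 1 conventional cells (cDC1) are marked by Xcr1, a chemokine receptor, and Clec9a, a receptor for dead cells, and are known for presenting antigen to CD8 T cells. The type 2 cells (cDC2) prime CD4 T cells, and in mouse dermis many carry the lectin Cd209a. On maturing, both kinds switch on Ccr7, the receptor that guides them along lymphatic vessels to the node, together with chemokines, costimulatory molecules and NF-kB pathway genes.

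The members were a larger part of the UV library than of the other libraries. They were 0.0161% [0.000408 to 0.0899] of the 6199 UV+VD cells, 1.05% [0.793 to 1.35] of the 5451 UV cells and 0.0881% [0.0381 to 0.174] of the 9078 control cells. The UV share was 11.9-fold higher than the control share [5.63 to 28.8]. The UV+VD share was 64.8-fold lower than the UV share [11.2 to 2605] and 5.46-fold lower than the control share, and the interval of that last ratio spans equality [0.73 to 242]. Whole-skin shares also move with every other cell type, so the members were also set against antigen-presenting cells, taken as cells with at least 10 counts of Cd74. Among these they were 1 of 106 UV+VD cells (0.943% [0.0239 to 5.14]), 57 of 549 UV cells (10.4% [7.96 to 13.2]) and 8 of 183 control cells (4.37% [1.91 to 8.43]). The UV and control intervals of this share overlap. With every cell thinned to 3000 counts before the rule was applied, UV+VD, UV and control skin had 3, 59 and 5 members. The UV share of all cells was then 19.3-fold the control share. Leaving out members with more than 1% keratinocyte marker counts made that ratio 23.3-fold. Cell barcodes shared by a pair of libraries numbered from 37 to 66, and none belonged to a member.

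**Figure D1:**
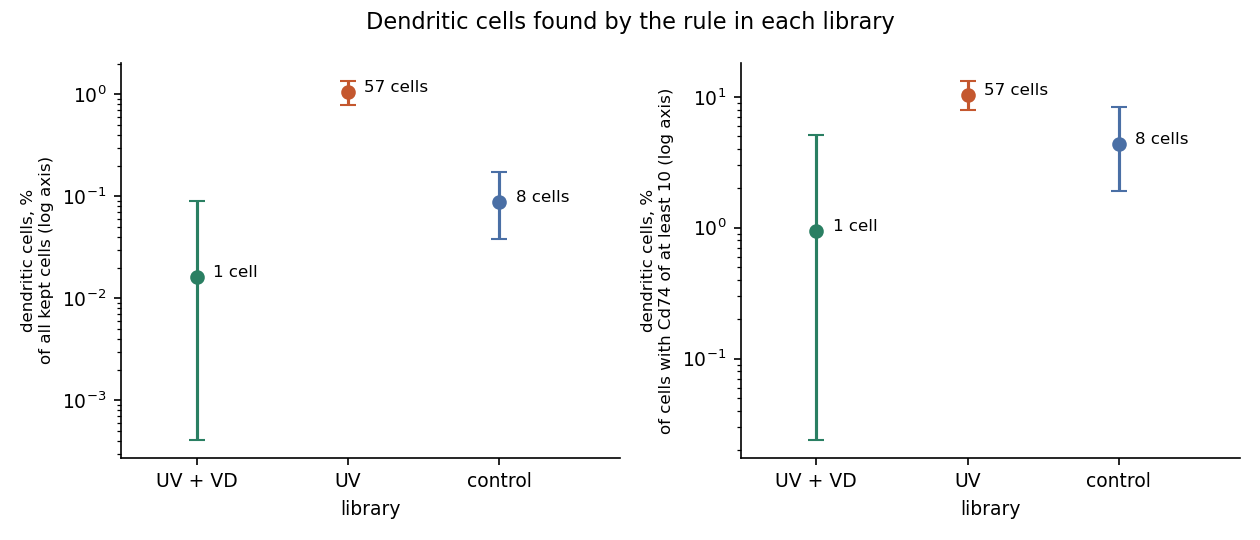
Share of cells that met the rule in the UV+VD, UV and control libraries, as a percentage of all kept cells (left) and of cells with at least 10 counts of Cd74 (right), on log axes. Points are shares and bars 95% exact binomial intervals; the UV library is highest in both panels, at 1.05% and 10.4%.

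The exclusions shaped these numbers. Of the cells with enough Cd74 and a dendritic cell gene, 58 in UV+VD, 199 in UV and 82 in control skin, the exclusions removed 57, 142 and 74. Mrc1 was present in 52, 95 and 68 of those removed, and was the only excluding gene in 48, 59 and 61. Ly6c2 was present in 34 in UV skin and 0 in the others. In the UV+VD library the lowest Cd74 count of a member was 587, and the highest count just under the limit was 3 in a cell that met the other conditions. The same pair was 76 and 8 in the UV library and 99 and 3 in the control library, so the Cd74 limit fell in a wide gap. The second condition was less sharp: 7 UV members and 2 control members entered on a single count of a single dendritic cell gene.

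The label could be checked only on genes outside the rule, since the rule's genes had to be present. H2-Aa, an MHC class II chain, had a lowest, median and highest count of 20, 121 and 234 per cell in the 57 UV members and 12, 102.5 and 148 in the 8 control members. The UV+VD cell had 195. H2-Aa stood at 28652 CPM (counts of the gene as a share of all counts in the summed cells, on the usual common scale) in the UV members. It was at 7851 CPM in the 166 UV cells with Mrc1, 11078 in the 69 with Ly6c2, 21197 in the 47 with Cd207 and 26.1 in 1499 keratinocyte-type cells. Complement C1qb, a macrophage gene, gave 25 CPM in the UV members against 3690 in the Mrc1-positive cells. Mfge8, high in Langerhans cells, gave 16.7 CPM in the UV members against 4231 in the Cd207-positive cells. Other markers of these cell types were not all low. Of 8 Langerhans markers, Il1r2 gave 506 of the 587 counts in UV members and was found in 48 of 57. At least 2 of the 8 were found in 30 of 57. At least 2 of 10 monocyte markers were found in 34 of 57, and 1 of these, Ms4a4c, in 35 of 57, at 637 CPM. Over the 57 UV members C1qb had 6 counts and C1qc, also a macrophage gene, had 2. The 8 control cells had 11, 0, 0, 4, 2, 0, 0 and 0 counts of C1qb. In the same order they had 4, 0, 0, 7, 0, 0, 0 and 0 of C1qc. The low level of these genes therefore held for the UV members as a group but not for every control member. Fscn1, an actin-bundling protein of mature dendritic cells, had 0 counts in every member of every library. Of 11 dendritic cell markers, 7 of them used by the rule, 4 were detected in the UV+VD cell, 10 in the UV members and 6 in the control members, where Zbtb46, Clec9a, Fscn1, Ccl22 and Itgax were at 0.

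Several other genes set the UV members apart from the neighbouring antigen-presenting cells of the same skin. Napsa, an aspartic protease, was at 483 CPM in the members, 59.5 in Mrc1-positive, 273 in Ly6c2-positive and 194 in Cd207-positive cells. Clec7a, the receptor for fungal beta-glucan also called Dectin-1, was at 1420, 238, 478 and 469 CPM in the same order. Ifitm1, an interferon-inducible membrane protein, was at 662 CPM in the members and at most 118 CPM in the other groups. Il1b, the inflammatory cytokine interleukin-1 beta, was at 3081 CPM against 813, 2075 and 985. Il1r2, the decoy receptor that binds interleukin-1 without signalling, was at 2107 CPM in the members, below the 3917 CPM of the Cd207-positive cells and above the 123 and 385 CPM of the Mrc1-positive and Ly6c2-positive cells. Lyz2, the myeloid lysozyme, was lower in the members, at 1141 CPM against 9589 in Mrc1-positive and 3177 in Ly6c2-positive cells. These are sums over cells of 1 library, with no replicate behind them.

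**Figure D2:**
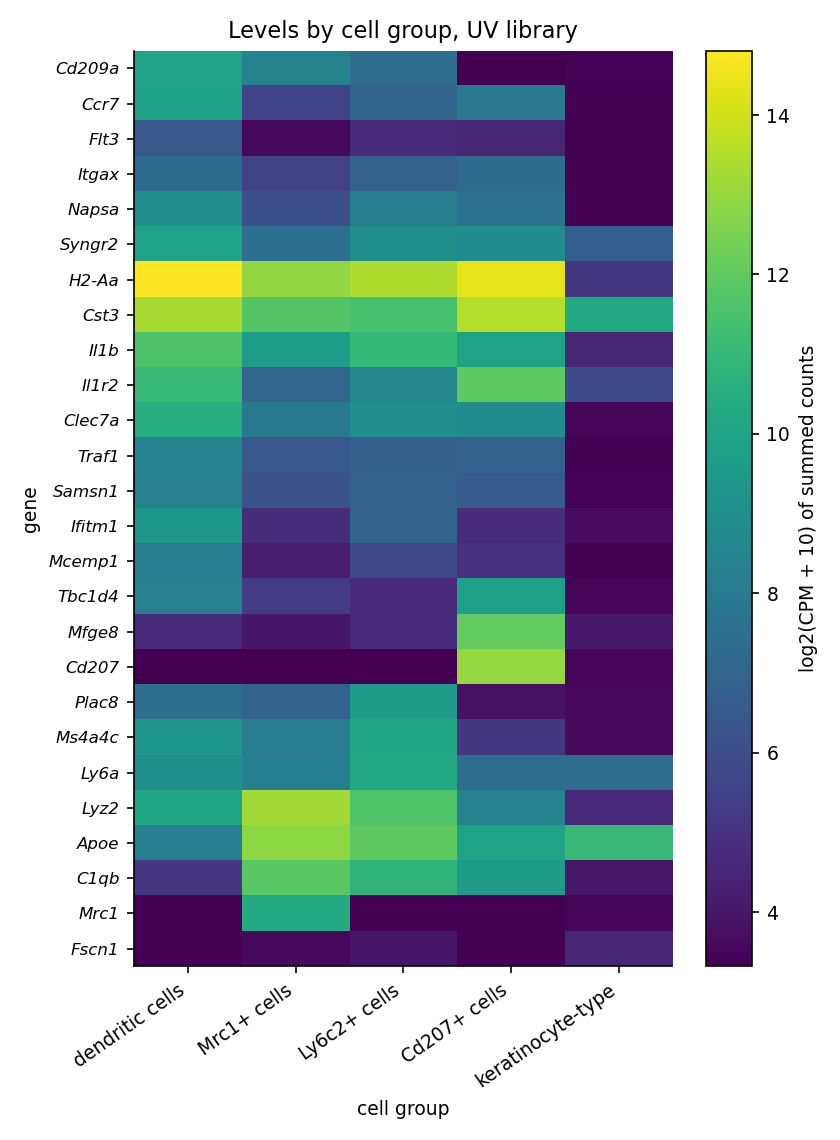
Levels of 26 genes, as log2(CPM + 10), in 5 groups of cells of the UV library: the dendritic cells, Mrc1-positive, Ly6c2-positive, Cd207-positive and keratinocyte-type cells. Yellow is high and dark violet low; the dendritic cells have the highest H2-Aa (28652 CPM), Il1b (3081 CPM), Clec7a (1420 CPM) and Ifitm1 (662 CPM) of the 5 groups, and low C1qb (25 CPM).

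Ccr7 and Cd209a were the genes through which most UV members entered. Ccr7 was found in 0 of 1 UV+VD member, 37 of 57 UV members (64.9% [51.1 to 77.1]) and 3 of 8 control members (37.5% [8.52 to 75.5]). The intervals of the UV and control shares overlap. In the control library 19 of the 21 Ccr7 counts came from a single cell. Among the UV members 19 had both Ccr7 and Cd209a, 18 had Ccr7 without Cd209a, 10 had Cd209a without Ccr7 and 10 had neither. Elsewhere in the UV library Ccr7 was seen in 2.41% of Mrc1-positive, 10.1% of Ly6c2-positive, 10.6% of Cd207-positive and 0.467% of keratinocyte-type cells. The keratinocyte-type cells held a median of 7652 counts and the UV members a median of 4042, and the shallowest group, the Ly6c2-positive cells, had a median of 3798. Flt3, the growth factor receptor of the lineage, was seen in 22.8% of UV members, and Xcr1 in 10.5% of UV members and 9.04% of Mrc1-positive cells. Members had to carry 1 of these genes to be members, so their higher shares come with the rule and are a description only.

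The UV members were split by Ccr7 into 37 positive cells with 151267 counts and 20 negative cells with 88928 counts. Median depth was 4004 and 4234 counts, and the keratinocyte marker list took a median of 0.0853% and 0.109% of a cell's counts. Genes with at least 20 counts in the 2 arms together were compared. A gene was called at a log2 ratio of CPM + 10 of at least 1 in size, a 2-fold difference on that scale. Of 1170 such genes 109 (9.32%) were higher in Ccr7-positive cells and 80 (6.84%) lower, and the median log2 ratio over all of them was -0.02. In the migratory and mature dendritic cell list, 9 of the 12 genes tested were higher and 0 lower, with a median log2 ratio of 2.13, and for 8 of them the counting interval lay wholly beyond 1.5-fold, which 3.42% of all genes did in that direction. The list has 34 genes. Most were too sparse to be tested, so the list was seen only in part. Fscn1, Socs2, Apol7c, Slco5a1, Tmem150c and Aldh1a2 had 0 counts in all 57 UV members. Cd200, Anxa3 and Bcl2l14 had 1 count each, Pdcd1lg2 had 2 and Cacnb3 had 3. A gene that enters through the arm where it is high is more likely to be counted as higher.

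Ccl22, the chemokine that draws CCR4-bearing T cells, had the highest ratio in that list among genes that did not rest mostly on 1 cell. It was found in 10 of 37 Ccr7-positive and 1 of 20 Ccr7-negative cells, at 469 and 22.5 CPM, a 20.9-fold ratio from 71 and 2 counts [5.57 to 176]. Samsn1, a signalling adaptor also called HACS1, was found in 28 of 37 and 2 of 20 cells, at 483 and 33.7 CPM, 14.3-fold higher [4.71 to 71.0]. Tbc1d4, a Rab GTPase-activating protein, was at 463 and 56.2 CPM, 8.23-fold higher [3.36 to 26.1]. Fabp5, a fatty acid binding protein, was 6.86-fold higher [2.16 to 34.9]. Ccl5, a chemokine for T cells and monocytes, had 276 counts against 1, but 160 of the 276 came from a single cell and only 7 of 37 positive cells had any. Of these genes Samsn1 was therefore spread over the most positive cells, while Ccl22 was high in a few. Tbc1d4 was found in 19 of 37 positive and 3 of 20 negative cells, and Fabp5 in 18 of 37 and 3 of 20.

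The 250 bases before the start of Ccl22 and of Samsn1, from RefSeq on GRCm38.p6, are shown because these genes led the Ccr7-positive side over several cells. Of the 8 highest and 8 lowest genes of the split picked by a fixed rule, 7 and 7 were in the promoter table. The windows were searched on both strands for GGG and TTTCC held apart by 2 bases (NF-kB), TGANTCA (AP-1) and GGAA and GAAA held apart by 2 bases (the ets-IRF composite element). The motifs were in 1.41%, 6.75% and 2.30% of all 32851 promoters of that length. The only match among the named genes was an ets-IRF letter match in Samsn1, beginning 124 bases before the start and marked in capitals. It lies beside a run of A, and a letter match is a description, not a binding site.
Ccl22, chr8:94745434-94745683, plus strand: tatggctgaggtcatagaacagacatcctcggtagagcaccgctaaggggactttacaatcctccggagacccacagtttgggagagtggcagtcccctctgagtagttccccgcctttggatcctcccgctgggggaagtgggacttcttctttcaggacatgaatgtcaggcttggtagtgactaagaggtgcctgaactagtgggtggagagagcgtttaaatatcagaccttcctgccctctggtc
Samsn1, chr16:75909267-75909516, minus strand: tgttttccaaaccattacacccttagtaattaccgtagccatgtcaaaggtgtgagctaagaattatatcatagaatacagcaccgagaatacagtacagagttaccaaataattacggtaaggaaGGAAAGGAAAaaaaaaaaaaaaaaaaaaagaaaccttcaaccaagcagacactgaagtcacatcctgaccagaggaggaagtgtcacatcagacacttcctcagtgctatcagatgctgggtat

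The NF-kB pathway genes were the next group on the Ccr7-positive side. Of 12 subunits and feedback inhibitors tested, 6 were higher and 0 lower, with a median log2 ratio of 1.05. Rel, a subunit needed for dendritic cell maturation, was at 542 and 214 CPM in Ccr7-positive and Ccr7-negative cells, 2.54-fold higher [1.53 to 4.43]. Nfkb1, which encodes p105/p50, was 2.94-fold higher [1.20 to 8.64], and Map3k14, the kinase NIK of the alternative pathway, 2.86-fold higher [1.25 to 7.63]. Nfkbia, the inhibitor IkB-alpha, was 1.64-fold higher [1.33 to 2.02], under the 2-fold call. Costimulation and T cell checkpoint ligand genes differed less. Of 7 tested 1 was higher, Cd274, the checkpoint ligand PD-L1, found in 14 of 37 and 1 of 20 cells. Cd83, a maturation marker that stabilises class II at the surface, was 1.82-fold higher [1.39 to 2.42], and Cd86, a CD28 ligand, 1.37-fold with an interval that spans equality [0.90 to 2.11].

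Both genes of the interleukin-1 pair were higher in the Ccr7-positive cells. Il1b was found in 37 of 37 Ccr7-positive and 17 of 20 Ccr7-negative cells, at 3887 and 1709 CPM, 2.27-fold higher [1.90 to 2.74]. Its per-cell level ran from 196 to 12123 CPM with a median of 3128 in the positive cells, and from 0 to 5172 CPM with a median of 1814 in the negative cells. Il1r2 was at 2744 and 1023 CPM, 2.68-fold higher [2.13 to 3.40]. Il7r, which with Crlf2 forms the receptor for thymic stromal lymphopoietin, was found in 30 of 37 and 4 of 20 cells, 2.74-fold higher [1.56 to 5.16]. The cells overlapped in level for Il1b and Il1r2 and were more nearly separated by the presence or absence of Il7r. Of the 8 cytokine and receptor genes tested, 3 were higher and 0 lower. The 8 UV members with Xcr1 or Clec9a, 1 of them Ccr7-positive, had Il1b at 626 CPM against 3571 in the other 49. Il7r had 0 counts in those 8 cells and 85 in the other 49. Most of those 8 cells came into the negative arm with the rule, and the ratios of Il1b and Il7r above include them.

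Among interferon-stimulated genes 5 of 11 tested were higher and 0 lower, with a median log2 ratio of 0.93. Ifi209, a member of the HIN-200 family, was 4.26-fold higher [1.5 to 16.7] and Phf11b 3.88-fold higher [1.51 to 12.7]. Ifit3, an antiviral effector, had 21 counts against 1, but 57.1% of the positive cells' counts were in a single cell. Ifitm1, not in that list, was found in 18 of 37 and 5 of 20 cells, at 965 and 146 CPM, 6.60-fold higher [3.74 to 12.7]. Mcemp1, a membrane protein of myeloid cells, was found in 25 of 37 and 5 of 20 cells, at 383 and 78.7 CPM, 4.87-fold higher [2.22 to 12.6]. Pgf, the placental growth factor, and Tnfaip2, a TNF-induced gene, were 6.17-fold [2.68 to 17.4] and 5.73-fold higher [2.07 to 22.1].

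Antigen presentation hardly differed across the split. Class II presentation genes had a median log2 ratio of 0.20, with 2 of 11 tested higher and 0 lower, and 1 of 14 class I and cross-presentation genes was higher, their median being 0.04. H2-Aa was at 30972 CPM in Ccr7-positive and 24705 CPM in Ccr7-negative cells, 1.25-fold higher [1.19 to 1.32]. The 2 that passed were H2-DMb2, a chain of the peptide-loading catalyst, 2.51-fold higher [1.41 to 4.74], and Ifi30, the lysosomal thiol reductase GILT, 2.07-fold higher [1.34 to 3.30]. Cd209a was at 998 and 967 CPM, a ratio of 1.03 [0.79 to 1.36].

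On the Ccr7-negative side stood cDC1 genes, lysozyme and some stress genes. Naaa, a lysosomal amidase high in cDC1, was found in 2 of 37 Ccr7-positive and 12 of 20 Ccr7-negative cells, at 19.8 and 360 CPM, 18.1-fold lower in the positive cells [5.68 to 92.6]. Ppt1, a lysosomal thioesterase also high in cDC1, was 4.01-fold lower [2.09 to 8.11]. In all, 3 of the 4 cDC1 genes tested were lower and 0 higher. A Ccr7-negative cell had to enter through another gene of the rule, Xcr1 and Clec9a among them, so a share of this difference came with the rule. Without the 8 cells that had Xcr1 or Clec9a, 1 of them Ccr7-positive, the log2 ratio of Ppt1 was -0.64, under the 2-fold call, and Naaa had 13 counts left, under the limit of 20 for a comparison. The migratory list kept a median of 2.04 there. Lyz2 was at 535 and 2170 CPM, 4.05-fold lower [3.11 to 5.32], and Cd14, the lipopolysaccharide co-receptor, 2.56-fold lower [1.88 to 3.51]. Of 22 immediate early and heat shock genes tested, 1 was higher and 4 were lower, including the stress factor Atf3, 5.01-fold lower [2.89 to 9.09]. Top2a, the topoisomerase of dividing cells, had 0 counts in the positive cells against 13 in 4 of the negative cells. The summed monocyte marker list was at 1613 CPM in the positive and 2901 CPM in the negative cells, but Lyz2 is in it, and the other 9 markers summed to 1078 CPM in the positive and 731 CPM in the negative cells.

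**Figure D3:**
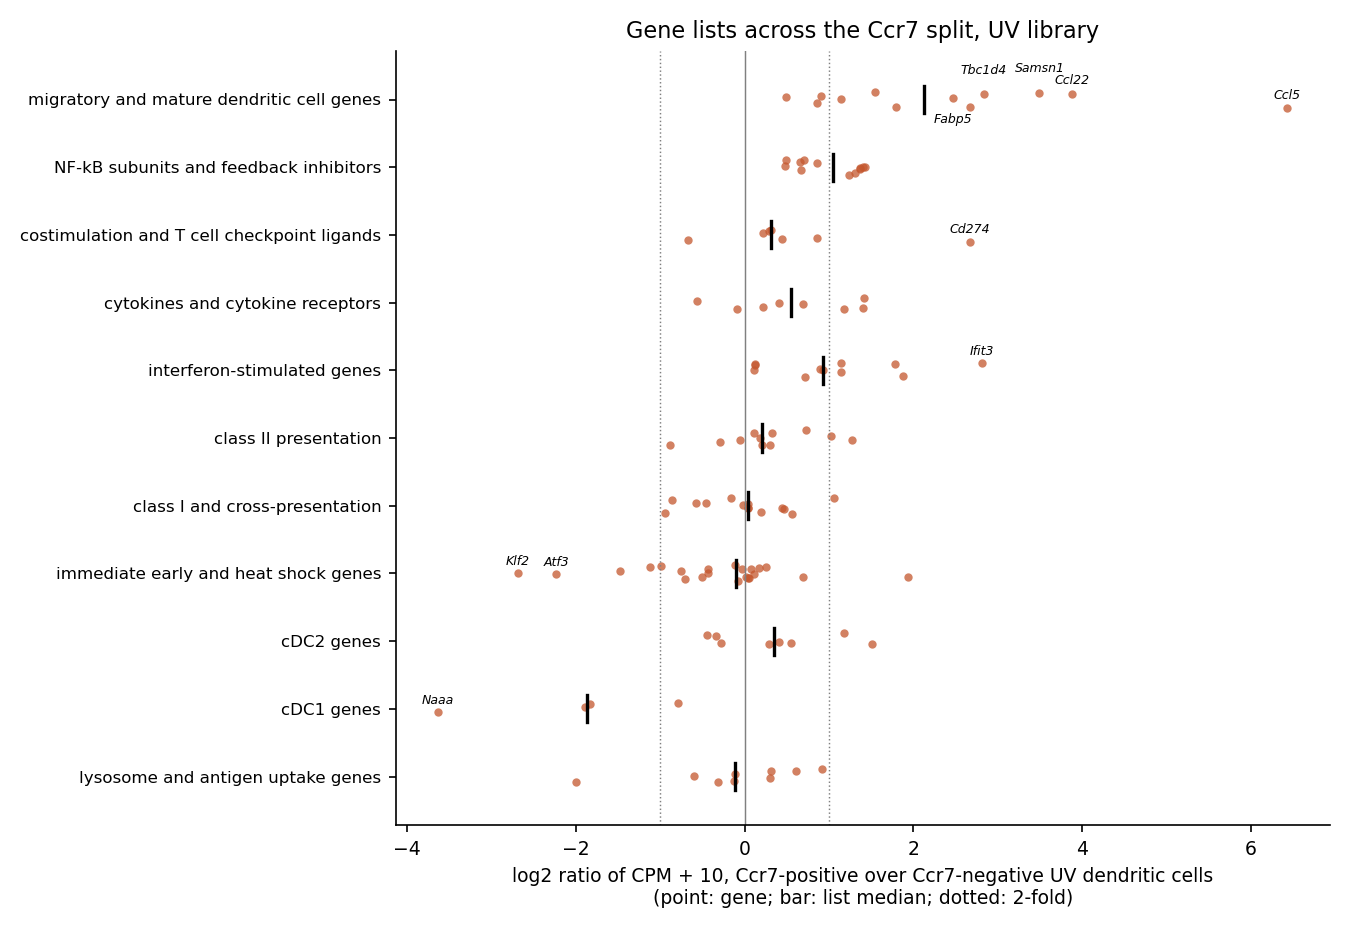
Log2 ratio of CPM + 10 between 37 Ccr7-positive and 20 Ccr7-negative dendritic cells of the UV library for the genes of 11 lists. Points are genes, bars list medians and dotted lines the 2-fold limits; the migratory list is farthest right (median 2.13), the NF-kB list next (1.05), and cDC1 genes lie left (-1.87).

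For UV against control the groups were 57 and 8 cells, with 240195 and 68825 counts and medians of 4042 and 5943.5 counts a cell. Some facts of the control cells stand beside every value that follows. Keratinocyte markers took more than 1% of counts in 1 of 57 UV and 4 of 8 control cells, and those 4 cells held 74.4% of the control counts. The keratinocyte list summed to 1657 CPM in UV and 21751 CPM in control members. The summed monocyte list was at 2090 and 5768 CPM, of which Lyz2 gave 274 of 502 UV and 366 of 397 control counts. Its other 9 markers were at 949 and 450 CPM, higher in UV members. The macrophage list was at 520 and 1438 CPM. One control cell with 4014 counts and 12 of H2-Aa, the fewest of any member, held 98.9% of the control counts of Ccl2 and 93.9% of those of Ccl4. The lists below, and several genes, are therefore also given for the 56 UV and 4 control cells at or under 1%, and chemokine and interferon genes without that 1 cell. Of 1640 genes tested 334 (20.4%) were higher and 347 (21.2%) lower in UV members, with a median log2 ratio of 0.00. In the cells at or under 1% the shares were 37.3% higher and 12.5% lower of 1240 genes, with a median log2 ratio of 0.51. There 240 of the genes had 0 counts in 1 group. With zeros set to a floor of 3 counts over that group the median of all genes was 0.00, so medians with zeros at the floor are read against that.

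Most tested genes of the shared conventional dendritic cell list were higher in UV members, less clearly so at or under 1% keratinocyte counts. Flt3 and Zbtb46 of that list are genes of the rule and were not tested. Of 10 genes tested, 8 were higher and 0 lower (median log2 ratio 1.66), and at or under 1% keratinocyte counts 6 were higher and 1 lower (median 1.28). With zeros at the floor these medians were 1.59 and 0.24. Intervals wholly beyond 1.5-fold numbered 5 higher and 0 lower over all cells, and 1 higher and 1 lower at or under 1%. Cst3, the protease inhibitor cystatin C, ran from 320 to 44653 CPM with a median of 7683 in the 57 UV cells. In the 8 control cells it was at 688 CPM in the lowest, 1890 at the median and 3488 in the highest, so every control cell was under the UV median, and 39 of 57 UV cells lay above the highest control cell. The summed ratio was 5.71-fold [4.76 to 6.90], and the log2 ratio at or under 1% was 2.12. Napsa was found in 45 of 57 UV and 3 of 8 control cells, 11.1-fold higher from 116 and 3 counts [3.70 to 54.5]. Syngr2, a vesicle membrane protein, was 2.67-fold higher [1.76 to 4.21]. Itgax, the integrin CD11c, had 36 counts against 0, 3.44-fold higher against a floor of 3 counts over the group. Such a fold over the floor is not a lower limit of the ratio.

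Il1r2 was found in most UV cells and few control cells. Its lowest, median and highest levels were 0, 1559 and 7872 CPM in UV cells, with 48 of 57 positive, and all 48 were above the highest control cell. It was at 0 in 6 of 8 control cells, and the other two had 170 CPM at most. The summed levels were 2107 and 58.1 CPM, 36.2-fold [14.1 to 134]. Keratinocytes carry Il1r2 RNA in both libraries: it was seen in 17.9% of UV and 20.3% of control keratinocyte-type cells, at 48.2 CPM in the UV ones. Il1b was at 3081 and 756 CPM, 4.08-fold higher [3.08 to 5.51], with medians of 2699 and 489 CPM per cell. At or under 1% keratinocyte counts Il1r2 had 490 UV and 0 control counts, and the log2 ratio of Il1b was 2.31. In the single UV+VD cell Il1r2 had 15 counts (2882 CPM) and Il1b 34 counts (6532 CPM). Il1rn, the receptor antagonist, was 3.96-fold lower in UV members, at 187 and 741 CPM.

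In the costimulation and T cell checkpoint ligand list, 5 of 7 genes tested were higher in UV members and 0 lower. The median log2 ratio was 2.33, or 2.10 with zeros at the floor. At or under 1% keratinocyte counts 5 were higher and 1 lower, and the medians were 1.39 and 0.79. Intervals wholly beyond 1.5-fold numbered 4 higher over all cells and 0 at or under 1%. Cd83 was found in 53 of 57 UV and 4 of 8 control cells, at 1212 and 232 CPM, 5.21-fold higher [3.16 to 9.24]. Tnfsf9, the 4-1BB ligand, was 6.59-fold higher from 69 and 3 counts [2.16 to 32.7]. Havcr2, the checkpoint receptor TIM-3, and Cd48, a ligand of CD2 family receptors, both had 0 control counts. They were 6.78-fold and 4.30-fold over the floor, and the interval of Havcr2 began at 5.37. Cd86 was at 470 and 262 CPM, with a log2 ratio of 0.82, under the 2-fold call, and of -0.10 at or under 1% keratinocyte counts. Ccl22 and Tbc1d4 of the migratory list had 73 and 75 counts in UV members and 0 in control members. These genes of the list were 6.97-fold and 7.16-fold over the floor, with intervals that began at 5.53 and 5.68. That list as a whole had 7 of 15 higher and 1 lower, with a median of 0.47. At or under 1% keratinocyte counts 7 of 13 were higher and 3 lower, at a median log2 ratio of 1.43 that was 0 with zeros at the floor.

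In the immediate early and heat shock list, 13 of 24 genes tested were higher in UV members and 1 lower, with a median log2 ratio of 1.6. At or under 1% keratinocyte counts the median was 1.34, or 1.02 with zeros at the floor. The heat shock genes were mixed. Without the control cell fewest in H2-Aa, Dnajb1 was 5.69-fold lower [3.46 to 9.51] and Hspa8 2-fold higher [1.49 to 2.74]. The 8 control cells had 0, 5, 0, 0, 21, 0, 16 and 1 counts of Dnajb1. Those with 5, 21 and 16 were over 1% keratinocyte counts, so its lower level rested on those cells. Fosb, an AP-1 subunit, was in 33 of 57 UV and 0 of 8 control cells. It was 9.26-fold over the floor, with an interval that began at 7.39. Fos, another AP-1 subunit, was at 1253 and 131 CPM, 9.58-fold higher [4.98 to 21.2]. Zfp36, which destabilises inflammatory mRNAs, was in all 57 UV cells and 6 of 8 control cells, at 2361 and 305 CPM, 7.74-fold higher [5.01 to 12.6]. These genes also respond to tissue dissociation, whose conditions per library are not given. In keratinocyte-type cells Fosb was seen in 28.5% of UV and 32.5% of control cells, and in Mrc1-positive cells it was at 220 and 188 CPM. Clec7a was at 1420 and 247 CPM, 5.75-fold higher [3.54 to 9.98], and no control cell reached the UV median. Ly6a, an interferon-responsive surface protein, had 126 counts against 0, in 24 of 57 UV cells. It was 12-fold over the floor, with an interval that began at 9.65.

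Class II genes were higher over all cells, and near the background of all genes at or under 1% keratinocyte counts. Of 11 tested 9 were higher and 0 lower, with a median log2 ratio of 1.31. At or under 1% keratinocyte counts 3 were higher and 0 lower, where 37.3% of all genes were higher. The median there was 0.46 against 0.51 over all genes, or 0.34 against 0.00 with zeros at the floor. With the control cell fewest in H2-Aa also left out, 2 of 11 were higher and 0 lower. The median was then 0.15 against 0.50 over all genes, or 0.11 against 0 with zeros at the floor. H2-Aa was at 28652 and 11333 CPM, 2.53-fold higher [2.35 to 2.73], and its log2 ratio was 0.48 at or under 1%. Ctss, the cathepsin that trims the invariant chain, was 2.33-fold higher [1.78 to 3.10] in all cells, with a log2 ratio of -0.18 at or under 1%. Class I genes had 5 of 14 higher and 0 lower over all cells, where their median log2 ratio was 0.56. At or under 1% the calls fell to 3 higher and 1 lower, none with an interval wholly beyond 1.5-fold. The class I median there was 0.70, against 0.51 over all genes or 0.00 with zeros at the floor. Leaving out the control cell fewest in H2-Aa as well gave 4 higher calls and 2 lower ones. That setting put the class I median at 0.37, against 0.50 over all genes or 0 with zeros at the floor. Psmb8, an immunoproteasome subunit, was in 42 of 57 UV and 1 of 8 control cells, with 110 counts against 1, 31.5-fold [5.54 to 1256], and its log2 ratio at or under 1% was 2.84.

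Several genes high in macrophages and monocytes were lower in UV members. Hmox1, which degrades haem, was in 1 of 57 UV and 6 of 8 control cells, at 16.7 and 2252 CPM, 135-fold lower [51.8 to 503]. Control cells had 16, 0, 39, 21, 23, 0, 1 and 55 counts of it, so it was not a matter of 1 cell. Mrc1-positive cells of the same libraries also differed in Hmox1, at 3368 CPM in UV and 8809 CPM in control skin. Lyz2 was at 1141 and 5318 CPM, 4.66-fold lower [3.98 to 5.47], with 7 of 8 control cells above the UV median of 270 CPM. At or under 1% keratinocyte counts the log2 ratios of Hmox1 and Lyz2 were -7.60 and -3.08. Lyz1, a second lysozyme gene near identical to Lyz2, so that reads may be split between them, was 89.3-fold lower [37.3 to 280], with counts in 4 of 8 control cells and 70 of the 128 in 1 of them. Cd14 was in 23 of 57 UV and all 8 control cells, 3.49-fold lower [2.82 to 4.32]. Of 13 lysosome and antigen uptake genes 3 were higher and 7 lower, with a median log2 ratio of -1.27, and -1.20 at or under 1%.

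Chemokines were the group whose direction turned on a single cell. With all 8 control cells 2 of 12 chemokines tested were higher in UV members and 9 lower, with a median log2 ratio of -3.05, and -3.87 in the cells at or under 1%, which include the cell named above. Without that cell 4 of 9 were higher, 4 were lower and the median was 0.73, while the background moved little, to 21.9% higher and 21.4% lower of 1610 genes. Without that cell and at or under 1% keratinocyte counts, 2 of 8 were higher and 3 lower. The median was then 0.05 against 0.50 over all genes. Ccl4, an inflammatory chemokine, was found in 10 of 57 UV cells, with 92 of its 274 counts in 1 of them, and in 2 of the 7 control cells left. Ccl4 was lower in UV members with that control cell (1141 and 4068 CPM) and 4.35-fold higher without it (1141 and 262 CPM). Those that stayed lower without it were Cxcl2, a neutrophil chemokine, at 183 and 1358 CPM, 7.41-fold lower [5.11 to 10.9], Ccl9, a monocyte chemokine, 5.21-fold lower [3.45 to 7.93], and Cxcl3, with 0 UV counts against 51. Without the next control cell highest in each gene as well, the UV and control levels were 183 and 936 CPM for Cxcl2, 175 and 681 for Ccl9, and 0 and 335 for Cxcl3. Ccl6 was 4.81-fold lower, but 48 of the 61 control counts were in 1 more cell, and without it the levels were 196 and 221 CPM. Interferon-stimulated genes changed likewise. With all cells 7 of 18 were higher and 6 lower (median 0.17), and at or under 1% keratinocyte counts 6 were higher and 10 lower (median -1.44). Without that cell 11 of 15 were higher and 1 lower (median 1.85, or 1.30 with zeros at the floor). With both limits on the control cells, which leaves 3 of them, the median was 2.53, or 0 with zeros at the floor. That cell alone held all control counts of Ifit1, Ifit2 and Ifit3.

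**Figure D4:**
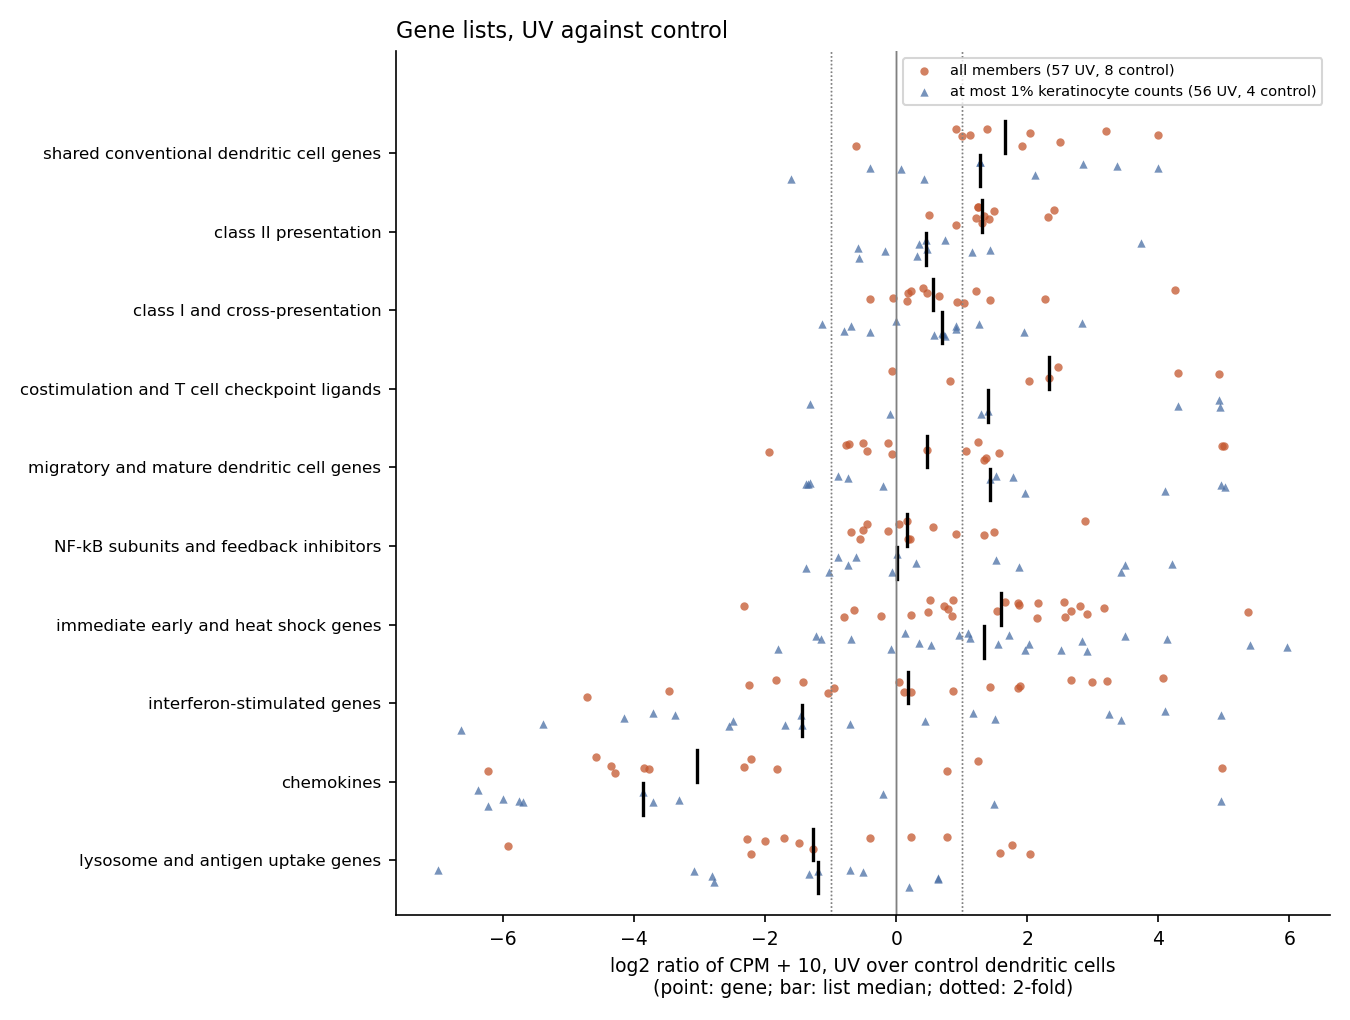
Log2 ratio of CPM + 10 between UV and control dendritic cells for the genes of 10 lists, with all members (circles, 57 UV and 8 control cells) and with members at or under 1% keratinocyte counts (triangles, 56 and 4 cells). Bars are list medians and dotted lines the 2-fold limits. The class II median moves from 1.31 to 0.46, while immediate early and heat shock genes stay at 1.6 and 1.34.

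The 8 genes with the largest positive log2 ratios by a fixed rule were Ly6a, Fosb, Tbc1d4, Ccl22, Il1r2, Havcr2, Pgf and Ass1, an enzyme of arginine synthesis. Of these 7 had 0 control counts. The folds over the floor not yet given were 6.59 for Pgf and 6.40 for Ass1, with intervals that began at 5.22 and 5.06. At the other end, after Hmox1, those reported here were Anxa8, Tmem45a, Serpinb2, Pdzk1ip1, Perp and Lypd3, all genes that keratinocytes express. Their log2 ratios were between -4.53 and -4.16 with all cells. At or under 1% keratinocyte counts they were between -2.37 and 0.80, with Lypd3 turning positive.

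The single UV+VD member had 5205 counts, of which keratinocyte markers were 0.0576%. It entered through 4 counts of Cd209a and had none of Ccr7, Flt3, Xcr1 or Clec9a. Its counts included 34 of Ccl22 and 6 of Ccl17, a pair of CCR4 ligands, 11 of Cd83, 10 of Cd86, 22 of Cst3 and 49 of Lyz2, and 0 of Samsn1. Ccl22 at 6532 CPM was close to the highest UV cell (6595 CPM) although this cell had no Ccr7. One cell gives no estimate for its library, so no gene was compared between UV+VD and the other groups.

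**Figure D5:**
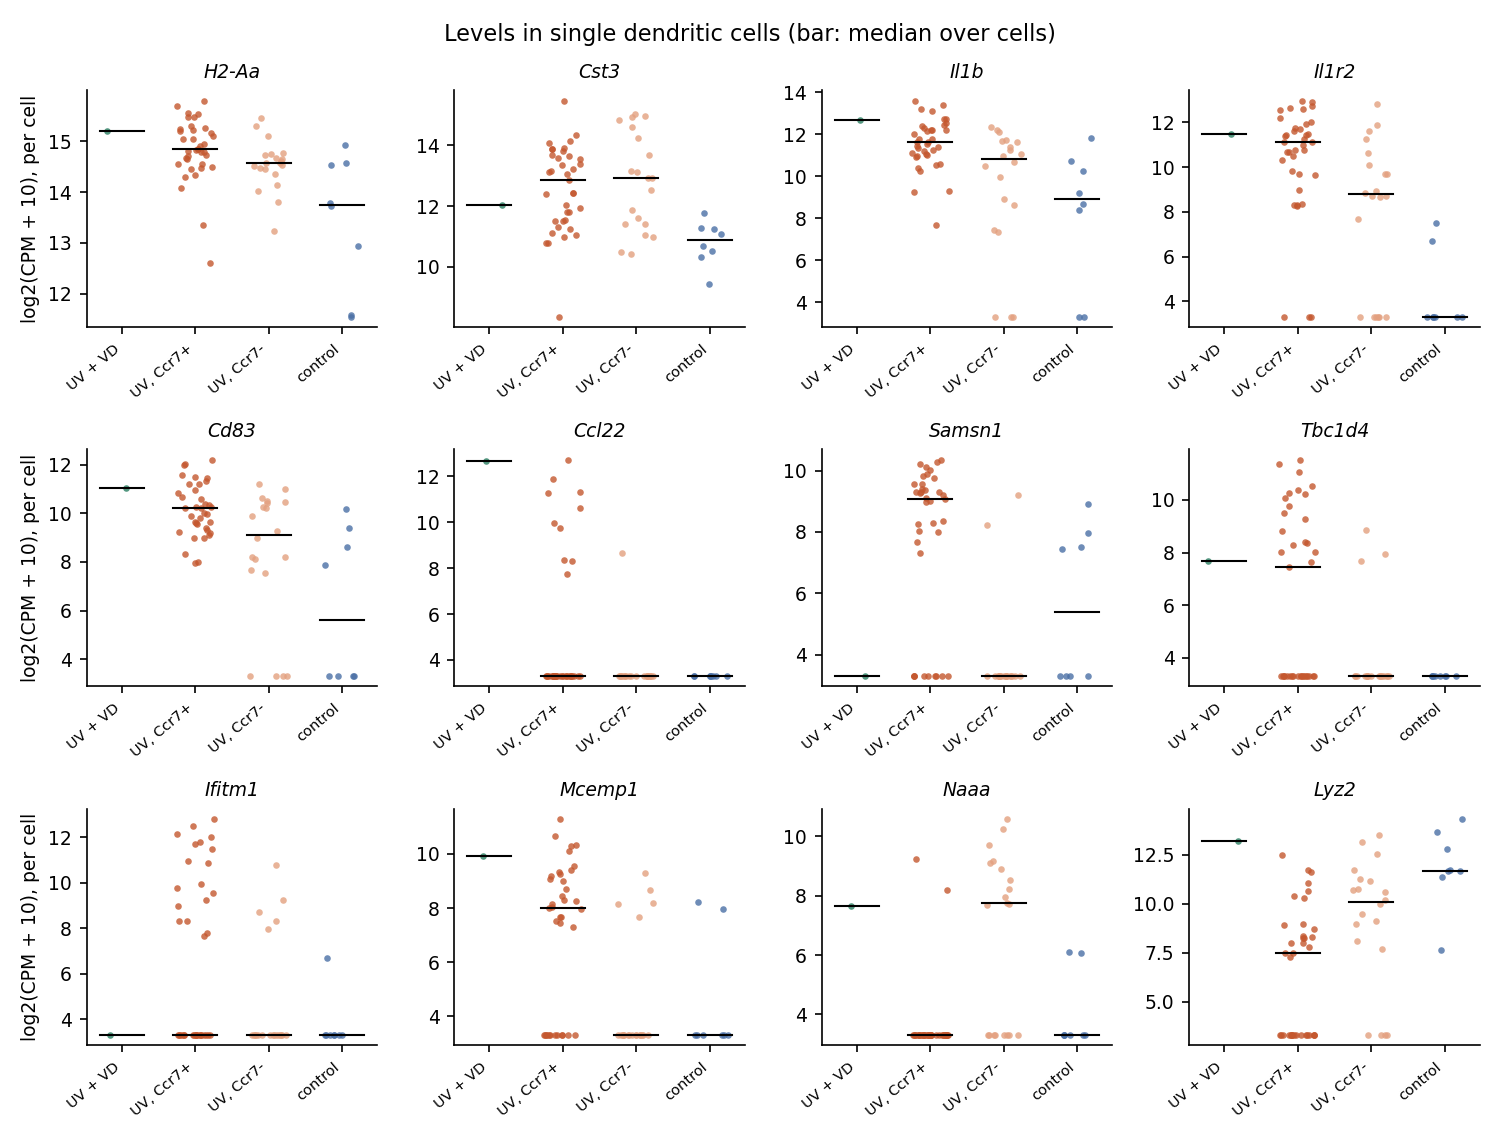
Levels of 12 genes in each dendritic cell, as log2(CPM + 10): the UV+VD cell, 37 Ccr7-positive and 20 Ccr7-negative UV cells, and 8 control cells, with bars at medians. Il1r2 is at its floor in 6 of 8 control cells, Samsn1 is above its floor in 28 of 37 Ccr7-positive and 2 of 20 Ccr7-negative UV cells, and every control Cst3 point is under the UV median of 7683 CPM.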

How the data were processed

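Each of the 3 deposited tables holds unnormalised counts, with genes in rows and barcodes in columns. Per the submitters' processing notes the authors' tools were featureCounts, STAR, fastp and FastQC. Versions are absent from those notes, and their build, GRCh38, is human although the symbols are those of mouse genes. The sources do not say whether unique molecules were counted. If reads were, the intervals are too narrow. Barcodes with at least 200 genes and at most 20% mitochondrial counts were kept (6199 UV+VD, 5451 UV and 9078 control). Doublets were not called.

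Counts were summed over members and given as CPM, with exact Poisson, binomial and conditional 95% intervals (Python 3.11.15, numpy 2.4.6, scipy 1.17.1). Log2 ratios used CPM + 10 and genes with at least 20 counts in both groups together. Named genes were the 8 highest and 8 lowest ratios among genes with at least 30 counts from at least 5 cells, at most 0.5 of them from 1 cell, an interval wholly beyond 1.5-fold and at least 0.2 of the CPM of other cells, plus list members. A gene that met this rule is not reported here. The cells, the lists and the rules were chosen with earlier results of these data known. Alternatives are in the closing section. With 1 library a group, no p-value was computed.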

Additional observations from a re-analysis of the deposited data

How the results depend on the processing

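All 28 share values under other limits stayed within counting error, as did the 14 Ccr7 shares. For UV against control, 334 genes were higher and 347 lower. Counting genes with at least 1 count gave 1732 and 2355, and at least 50 counts gave 145 and 120. Cells without Csf1r, C1q or Fcgr1 gave 199 and 107, Ccr7-negative cells alone 177 and 231, and cells at or under 1% keratinocyte counts 155 lower. Higher genes were 49.05% of those called, 62.7% without the top cell of each gene, 74.9% at or under 1% keratinocyte counts and 65.0% without Csf1r, C1q and Fcgr1. The median of all genes shifted to 0.13 with mitochondrial, ribosomal and keratinocyte genes left out of the total, 0.30 without top cells and 0.51 at or under 1%, where it was 0.00 with zeros at the floor. Thinned to 3000 counts, the Ccr7 split gave 72 higher and 53 lower, against 109 and 80. Medians that reversed were pattern recognition receptors (-1.51, to 0.50 at 1 count and 0.34 at 50 counts), lysosomal genes (-1.27, to 0.23 at 1 count) and chemokines (-3.05, to 0.73 without 1 control cell, an alternative chosen after seeing the data). The interferon gene median (0.17) was -1.44 at or under 1% and -4.50 in Ccr7-negative cells alone. Lypd3 went to 0.80 from -4.16 at or under 1%. Apart from the settings that drop or admit cells or genes, the cause was not tested. Gene alternatives for UV+VD (1 cell) and Ccr7-positive control cells (3 cells) were not run. No paired analysis was possible because each group has 1 library. Depth limits most list genes: a median UV member held 4042 counts.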

Other observations

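Among the UV members, 8 cells had Xcr1 or Clec9a counts and were set beside the other 49, a division made after values were seen and given as a description. Cst3 was at 18870 and 8470 CPM, Naaa at 551 and 64.9 CPM, Ppt1 at 626 and 110 CPM, Irf8, a transcription factor that cDC1 need, at 551 and 145 CPM, and Cadm1, an adhesion molecule of cDC1, at 150 and 25 CPM. Il1b was lower in the 8 cells, at 626 and 3571 CPM, and Ccr7 had 8 and 216 counts. Mgl2, a lectin of cDC2, and Il7r had 0 counts in the 8 cells and 70 and 85 in the other 49.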
